A study of Mus musculus with 12 samples.

Results

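A set of 10 genes that mark perivascular or alternatively activated macrophages was followed through all 12 single-cell RNA libraries of the stromal vascular fraction (SVF) of mouse white fat. The 10 genes were taken by name from the 31053 genes of the count matrices. They were Retnla, Mrc1, Cd163, Lyve1, Mgl2, Clec10a, Folr2, Arg1, Ear2 and F13a1. The SVF is what sediments after collagenase digestion once the floating adipocytes are removed, and here it came from 300 mg of epididymal (eWAT) or inguinal (iWAT) white adipose tissue. Each depot gave 6 libraries, 2 in each of 3 groups of 12-week-old male mice. WT-Veh were C57BL/6J mice given methylcellulose vehicle, ob/ob-Veh were Lepob/Lepob mice given the same vehicle, and ob/ob-Rosi were Lepob/Lepob mice given 30 mg/kg rosiglitazone, a PPARγ agonist. All mice were gavaged morning and evening for 3 days. Lepob is a nonsense allele of leptin, so these mice eat without restraint and become obese, and they lack leptin in every tissue. The labels call the 2 libraries of a group biological replicates, and the study's text speaks of individual mice, so the p-values below measure the spread between 2 mice per group.

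Macrophages of fat fall into resident cells that lie along vessels (perivascular macrophages, PVMs), lipid-associated macrophages (LAMs) that gather around dying adipocytes, and other, non-perivascular cells (NPVMs) close to monocytes. Resident macrophages carry scavenger and lectin receptors that clear proteins, glycans and debris from the tissue. Interleukin-4 and interleukin-13, acting through the receptor chain Il4ra and the transcription factor STAT6, turn on a further group of genes known as the alternative activation programme, and PPARγ is a known partner of that axis. Of the members, Mrc1 (CD206, the mannose receptor), Cd163 (the haemoglobin scavenger receptor), Lyve1 (a hyaluronan receptor), Folr2 (folate receptor beta), Clec10a and Mgl2 (neighbouring galactose-type lectins) and F13a1 (the A subunit of coagulation factor XIII) are surface or secreted proteins of resident macrophages. Retnla (RELMα, FIZZ1), a small secreted protein, Arg1 (arginase), which hydrolyses arginine, and Mgl2 are classical interleukin-4 targets. Ear2 is an eosinophil-associated ribonuclease.

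On the GRCm38 build with the GENCODE vM21 annotation all 10 genes are protein coding. Retnla lies on chromosome 16 (48842551 to 48844461, plus strand), Mrc1 on chromosome 2 (14229392 to 14332057, plus strand), Cd163 on chromosome 6 (124304656 to 124330527, plus strand) and Ear2 on chromosome 14 (44102654 to 44103534, plus strand). Mgl2 (70130329 to 70137550) and Clec10a (70156197 to 70170834) follow each other on the plus strand of chromosome 11. On the minus strand are Lyve1 (chromosome 7, 110850607 to 110863239), Folr2 (chromosome 7, 101839988 to 101857194), Arg1 (chromosome 10, 24915221 to 24927484) and F13a1 (chromosome 13, 36867178 to 37050244). Mgl2 and Clec10a are close paralogs, and Ear2 belongs to a family of nearly identical Ear copies, so reads of these 3 genes could be shared with their relatives.

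The stretches just upstream of Retnla, Mgl2 and Ear2 are shown because these are the 3 members called in PVM-like cells of eWAT. They are RefSeq promoter sequences (GRCm38.p6) on the plus strand, written 5′ to 3′ and ended before the first base that either annotation transcribes. Capitals mark matches, on either strand, to the STAT palindromes TTCNNNNGAA and TTCNNNGAA or to the C/EBP half-site TTGCNNAA.
Retnla, chr16:48842359-48842550: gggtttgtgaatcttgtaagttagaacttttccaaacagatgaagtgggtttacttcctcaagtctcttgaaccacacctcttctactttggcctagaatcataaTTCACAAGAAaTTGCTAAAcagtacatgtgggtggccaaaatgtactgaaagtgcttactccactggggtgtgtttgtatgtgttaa
Mgl2, chr11:70130107-70130328: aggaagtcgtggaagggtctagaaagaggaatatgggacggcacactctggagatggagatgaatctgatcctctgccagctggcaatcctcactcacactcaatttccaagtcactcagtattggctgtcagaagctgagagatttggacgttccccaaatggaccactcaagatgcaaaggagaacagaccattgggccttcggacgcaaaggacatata
Ear2, chr14:44102404-44102653: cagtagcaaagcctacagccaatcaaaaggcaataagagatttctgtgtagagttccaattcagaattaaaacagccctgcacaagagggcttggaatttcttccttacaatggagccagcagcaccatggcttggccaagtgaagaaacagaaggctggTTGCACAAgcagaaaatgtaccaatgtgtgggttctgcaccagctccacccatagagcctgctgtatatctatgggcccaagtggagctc
Retnla held TTCNNNNGAA at -145 and TTGCNNAA at -134, counted from the RefSeq start site. Ear2 held TTGCNNAA at -90. Mgl2 held none of the 3 motifs in this window, and neither did the promoters of Mrc1, Cd163, Folr2 and F13a1. Among 32851 mouse promoters of 300 bases, 6.95% held TTCNNNNGAA, 8.3% TTCNNNGAA and 10.8% TTGCNNAA. These are matches of letters and were not tested as binding sites. RefSeq entries were found for 7 of the 10 members, and Lyve1, Clec10a and Arg1 had none.

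The matrices held from 20132553 to 92475986 unique molecular identifiers (UMIs) per library, and 6472 to 17500 cells per library passed the limits on UMIs, detected genes and mitochondrial reads. Pairs of libraries shared at most 1.05% of the barcodes of the smaller one. Lep, the gene the Lepob allele disrupts, was read per 100 UMIs of Adipoq, an adipocyte gene, since the SVF holds few adipocytes. In eWAT this ratio was 30.5 and 79.3 for WT-Veh (36 and 153 Lep UMIs), 3.59 and 10.3 for ob/ob-Veh (8 and 60 UMIs), and 259 and 361 for ob/ob-Rosi (75 and 318 UMIs). In iWAT it was 20.5 and 31.4 for WT-Veh (50 and 83 UMIs), 33.3 and 14.0 for ob/ob-Veh (4 and 8 UMIs), and 164 and 139 for ob/ob-Rosi (167 and 198 UMIs). The Adipoq UMIs below these ratios were 118 and 193, 223 and 585, and 29 and 88 in eWAT, in the same order of groups. In iWAT they were 244 and 264, 12 and 57, and 102 and 142, so the ratios also move with Adipoq. The Lepob transcript carries a stop codon and is still made, so the ratio does not show the allele. Fat of ob/ob mice is known to hold more Lep RNA than lean fat and PPARγ agonists are known to lower it, and in eWAT the ob/ob-Veh values were the lowest, while in both depots the ob/ob-Rosi values were above those of ob/ob-Veh, on few UMIs from a fraction from which the adipocytes had been removed. The study's flow cytometry, histology and glucose tolerance tests of the same groups were not analysed here. Over all cells the iWAT library WT-Veh 1 stood apart in depth, with a median of 1132 UMIs per cell against 1919 to 4671 in the other iWAT libraries. Among the iWAT macrophage-like cells defined below, both ob/ob-Veh libraries were the shallowest. Their medians were 1695 and 1656 UMIs, against 3113 to 4857.5 in the other iWAT libraries, so depth went with group there.

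Cells were clustered without the 10 genes, and macrophage clusters were named from other markers, so that the level of a member in a class is not set by how the class was made. The PVM-like clusters had 16 to 17 of 18 other perivascular markers detected (among them Timd4, Cbr2, Pf4 and Cd209 family genes), the LAM-like clusters 16 to 17 of 17 (Trem2, Gpnmb, Spp1) and the NPVM-like clusters 12 to 16 of 17 (Ccr2, Fn1, Il1b). Proliferating (PLAM-like) cells, monocyte-like cells and macrophage clusters with no clear name were kept apart, and all of these together are called macrophage-like cells. The classes took very unequal shares of the macrophages. In eWAT, PVM-like cells made up 25.3% and 27.5% of macrophage-like cells in WT-Veh, 61.6% and 70.3% in ob/ob-Veh and 22.2% and 9.37% in ob/ob-Rosi. LAM-like cells were 21.4% and 23.3% in WT-Veh, 0.397% and 0.873% in ob/ob-Veh and 21.4% and 33.0% in ob/ob-Rosi. In iWAT the PVM-like share was 66.4% and 59.96% in WT-Veh, 78.2% and 82.2% in ob/ob-Veh and 46.9% and 36.2% in ob/ob-Rosi. In both depots both ob/ob-Veh libraries had the higher PVM-like and lower LAM-like shares, with no overlap with the other groups. Cells that float off with the adipocytes are not in the SVF, so these are shares of the pelleted cells. With 2 libraries against 2 an exact permutation test of a share cannot go below p = 0.33, so these shares are given as description.

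**Figure D1:**
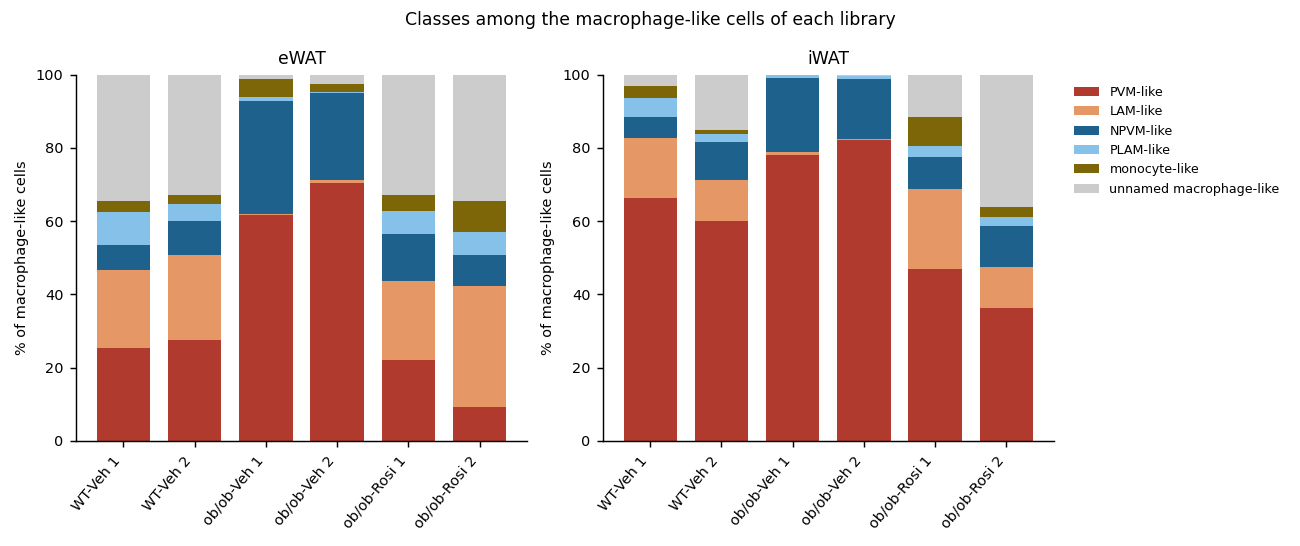
Share of macrophage-like cells (percent, vertical axis) in each class for each of the 6 eWAT and 6 iWAT libraries, with the classes set by markers other than the 10 genes. The ob/ob-Veh bars are mostly PVM-like, from 61.6% to 82.2%, and the LAM-like part is under 1% there.

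The clusters that made up a class also differed between groups. In eWAT, cluster 0 held 2253 of the 2268 PVM-like cells of WT-Veh 1 and 1216 of 1251 of ob/ob-Rosi 1, and cluster 6 held 787 of 849 of WT-Veh 2 and 469 of 495 of ob/ob-Rosi 2. Clusters 17 and 18 held 1821 of 1864 and 1773 of 1852 PVM-like cells of ob/ob-Veh 1 and 2. Cluster 10 held most NPVM-like cells of ob/ob-Veh (856 of 930 and 543 of 628) and cluster 8 most of those of the other groups. In iWAT the ob/ob-Veh PVM-like cells lay in clusters 14 and 15, those of the other groups in clusters 1, 2 and 6, and NPVM-like cells were split in the same way between cluster 12 (ob/ob-Veh) and cluster 4. Genes induced by interferon (Rsad2, Cxcl9, Ifit3) led a small NPVM-like cluster in eWAT, and Rsad2 led cluster 15 in iWAT. A comparison within a class is thus also one between clusters.

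In eWAT 6 of the members were highest in PVM-like cells. Levels are given as CPM, the UMIs of a gene per 1000000 UMIs of its class in a library, and they compare samples for one gene and not genes with each other. In eWAT the PVM-like level was the highest of 6 macrophage and monocyte classes, with no overlap with the next class, for F13a1 (median over libraries 2876 CPM, next class 418), Lyve1 (962, next 50.6), Cd163 (728, next 110), Mrc1 (2147, next 687), Folr2 (1371, next 382) and Clec10a (1439, next 432). PVM-like cells of eWAT carried 71.9% to 98.5% of the macrophage UMIs of Lyve1 in each library. In iWAT the order held without overlap for Lyve1 (1338, next 309), Clec10a (2119, next 1032) and F13a1 (3103, next 2103). For Cd163 (1108), Mrc1 (2998) and Folr2 (1180) the PVM-like cells were again at the top, but the range over libraries overlapped that of unnamed macrophage-like cells (769, 1888 and 819).

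The other 4 members followed other orders. Ear2 was highest in NPVM-like cells, at a median of 613 CPM in eWAT and 1013 in iWAT, and overlapped monocyte-like cells (226 and 408), while PVM-like cells were at the bottom (12.8 and 17.7). Retnla was highest in NPVM-like (3085) and PVM-like cells (2139) in eWAT and in PVM-like (13154) and NPVM-like cells (12831) in iWAT, and these 2 classes overlapped in both depots. Mgl2 was highest in NPVM-like cells in eWAT (387, PVM-like 171) and in unnamed macrophage-like cells in iWAT (1029, PVM-like 573, NPVM-like 354), again with overlap. Arg1 had low medians in every class, the highest being 23.4 CPM in eWAT and 30.6 CPM in iWAT, both in LAM-like cells. Every class overlapped its neighbour. Single eWAT libraries reached 1254 CPM in monocyte-like and 223 CPM in unnamed macrophage-like cells. The eWAT LAM-like median was the value of ob/ob-Veh 2, with 23 such cells. The class orders carry no test.

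**Figure D2:**
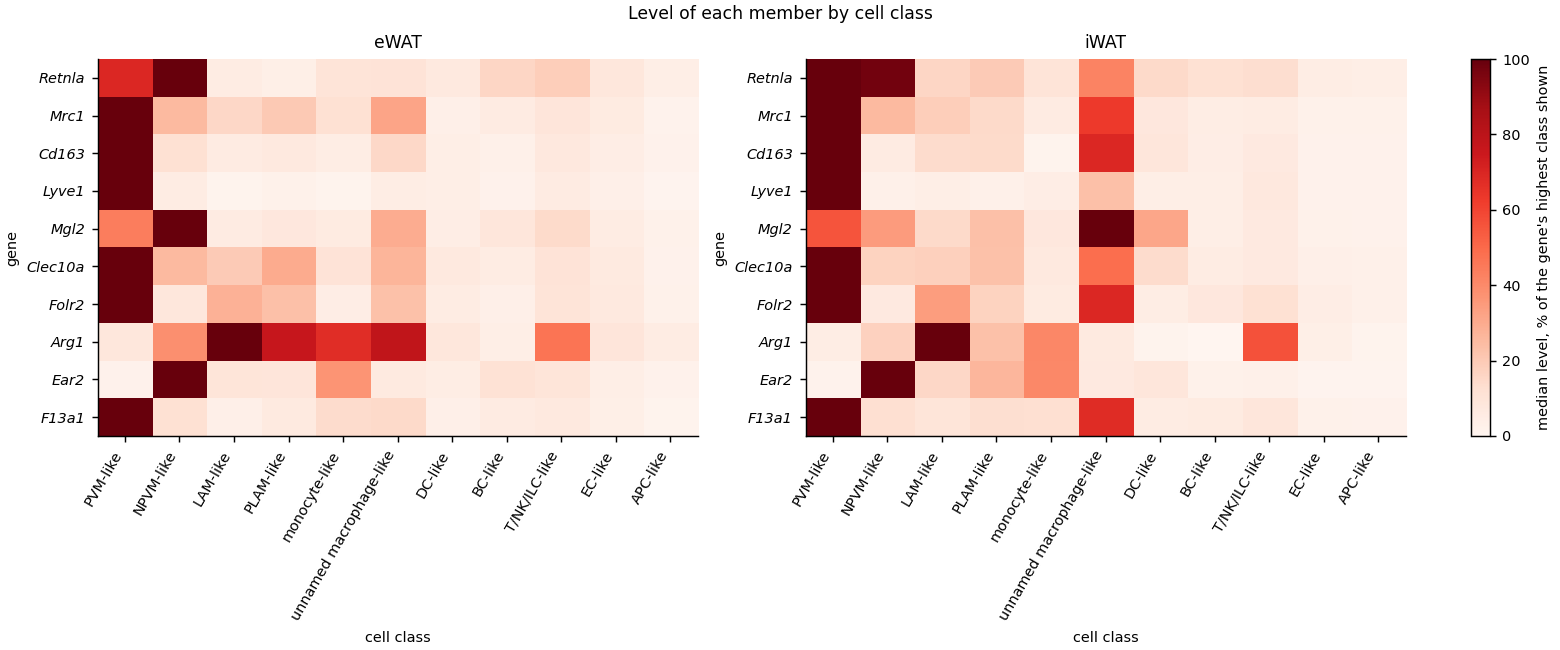
Median level of each of the 10 genes over libraries in 11 cell classes of eWAT and iWAT, as a percentage of that gene's highest class shown. Lyve1, Cd163, F13a1, Mrc1, Folr2 and Clec10a share the PVM-like column, and Ear2 stands in the NPVM-like column.

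Over the clusters, members that shared a class moved together. Across 15 eWAT and 12 iWAT macrophage and monocyte clusters, Pearson's r was 0.944 and 0.929 for Cd163 with Lyve1, 0.939 and 0.966 for Mrc1 with Cd163, and 0.922 and 0.977 for Lyve1 with F13a1. Retnla with Mgl2 gave 0.844 and 0.708. Folr2 with Ear2 gave -0.666 and -0.959, and Mrc1 with Arg1 -0.880 and -0.794. Clusters share libraries and depth, so these values are descriptions.

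The members were also seen outside macrophages, and free RNA in droplets gives UMIs in cells that do not make a gene. In adipocyte progenitor (APC-like) cells, Retnla stood at 117 and 21.8 CPM in WT-Veh, 514 and 686 in ob/ob-Veh and 144 and 12.4 in ob/ob-Rosi of eWAT. The APC-like level thus went with the macrophage level, at a PVM-like to APC-like ratio of 14.0 to 39.5 in eWAT and 14.4 to 52.2 in iWAT. B-cell-like cells of eWAT carried 317 and 34.1, 1912 and 4267, and 656 and 28.03 CPM of Retnla in the same order of groups. After every cell was thinned to 700 UMIs, 14.6% to 87.3% of eWAT PVM-like cells had a Retnla UMI, against 1.15% to 35.9% of APC-like cells. Without thinning the shares were 28.9% to 98.3% and 4.90% to 86.1%, at median depths of 1936 to 5279 UMIs in PVM-like and 1353 to 6642 in APC-like cells. For Ear2 the PVM-like level was 0.537 to 1.64 times the APC-like level in eWAT and 1.26 to 2.59 times in iWAT, so Ear2 in eWAT PVM-like cells is read here as background, whereas NPVM-like cells had 37.5 to 65.5 times the APC-like level in eWAT. Arg1 in eWAT PVM-like cells was likewise at the APC-like level (0.568 to 2.22 times). Cd163, Lyve1, Mrc1, F13a1, Folr2, Clec10a and Mgl2 had PVM-like levels from 13.6 to 229 times the APC-like level over the 12 libraries. Lymphatic endothelial-like cells of eWAT, known to carry the Lyve1 protein, had 3464 CPM of Lyve1 in WT-Veh 1 and 4103 and 3074 in ob/ob-Veh. The part of free RNA in the group differences below was not tested.

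The first question was how the eWAT macrophages labelled ob/ob-Veh differed from those labelled WT-Veh. Taken over all macrophage-like cells, Retnla was the member with the largest change. It stood at 646 and 280 CPM in WT-Veh, at 14997 and 11181 in ob/ob-Veh and at 831 and 162 in ob/ob-Rosi. Both ob/ob-Veh libraries lay far above the other 4, with no overlap. The log2 fold change of ob/ob-Veh over WT-Veh was 4.64 (SE 0.71, adjusted p = 0.00255, edgeR quasi-likelihood test on UMI sums with Benjamini-Hochberg adjustment over 13523 genes). A change is called here at an adjusted p of at most 0.05 and at least 1.1-fold.

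Mgl2, the lectin among the interleukin-4 targets, stood at 88.0 and 85.2 CPM in WT-Veh, 601 and 789 in ob/ob-Veh and 90.8 and 81.1 in ob/ob-Rosi. The replicates of each group lay close together, and only the ob/ob-Veh libraries stood apart. The log2 fold change was 2.82 (SE 0.23, adjusted p = 0.000151). Cd163 was at 158 and 184, 705 and 836, and 187 and 82.2 CPM in the same order of groups, with a log2 fold change of 1.99 (SE 0.33, adjusted p = 0.00371). Ear2 was at 92.8 and 110, 447 and 305, and 73.3 and 50.5 CPM (1.73, SE 0.28, adjusted p = 0.00317). Both receptors and the ribonuclease thus had their higher values in ob/ob-Veh, without overlap.

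Lyve1 was at 262 and 195 CPM in WT-Veh, 701 and 762 in ob/ob-Veh and 139 and 55.9 in ob/ob-Rosi (ob/ob-Veh over WT-Veh 1.495, SE 0.36, adjusted p = 0.0159). F13a1 was at 596 and 914, 1681 and 2137, and 584 and 310 CPM (1.17, SE 0.31, adjusted p = 0.0211). These calls were less firm: leaving out any 1 of the 4 WT-Veh and ob/ob-Veh libraries ended the Lyve1 call, and leaving out WT-Veh 1 or either ob/ob-Veh library ended that of F13a1, as did thinning cells to 700 UMIs for Lyve1 (log2 fold change 1.07), with adjusted p up to 0.0926 and 0.173. In all, 6 of the 10 members were called higher and none lower, where 26.8% of all genes tested were called and 12.6% were called higher. The median log2 fold change was 1.33 over the members and 0.00 over all genes.

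Not called were Mrc1 (655 and 859, 1534 and 1552, 819 and 338 CPM, log2 fold change 0.86, adjusted p = 0.0889), Folr2 (459 and 588, 615 and 1274, 538 and 525 CPM, 0.66, adjusted p = 0.123) and Clec10a (658 and 905, 821 and 896, 499 and 366 CPM, -0.03, adjusted p = 0.928). For Mrc1 the ob/ob-Veh libraries lay above all others, for Clec10a they lay within the range of WT-Veh. Arg1 had 45.1 and 12.96, 71.5 and 8.44, and 11.6 and 17.0 CPM and differed more within groups than between them (0.31, adjusted p = 0.802). Of the 961 Arg1 UMIs of ob/ob-Veh 1, 768 came from monocyte-like cells, where Arg1 was at 1254 CPM in ob/ob-Veh 1 and 156 in ob/ob-Veh 2 against 4.07 to 20.7 in the other 4 eWAT libraries.

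**Figure D3:**
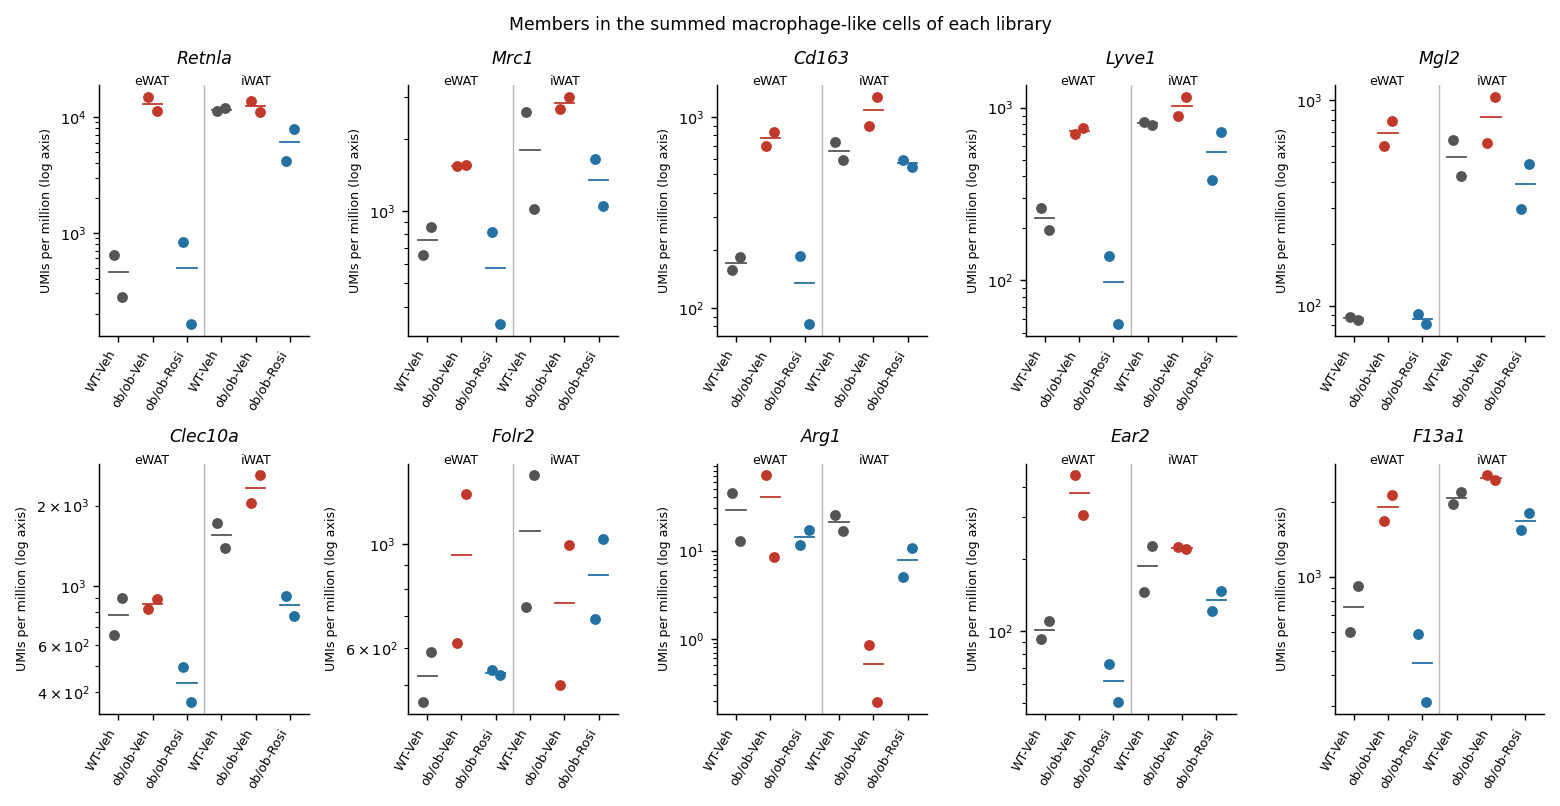
Level of each of the 10 genes in all macrophage-like cells (CPM, log axis) by depot and group. Points are the 2 libraries of a group and the line is their mean, and in eWAT the ob/ob-Veh points for Retnla, 14997 and 11181 CPM, lie far above the others, while in iWAT those of WT-Veh and ob/ob-Veh overlap.

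Rosiglitazone was set against vehicle by comparing ob/ob-Rosi with ob/ob-Veh, as labelled, and this comparison uses the same ob/ob-Veh libraries as the one above. In eWAT 8 of the 10 members were called lower in ob/ob-Rosi and none higher, where 28.2% of all genes tested were called and 13.3% were called lower. Retnla had a log2 fold change of -4.55 (SE 0.71, adjusted p = 0.00249), Mgl2 of -2.80 (SE 0.23, adjusted p = 0.000157), Lyve1 of -2.72 (SE 0.38, adjusted p = 0.00168), Ear2 of -2.41 (SE 0.28, adjusted p = 0.000717), Cd163 of -2.32 (SE 0.34, adjusted p = 0.00188) and F13a1 of -1.89 (SE 0.31, adjusted p = 0.00334). These 6 calls were kept without each library in turn. Mrc1 (-1.22, SE 0.35, adjusted p = 0.0262) and Clec10a (-0.79, SE 0.24, adjusted p = 0.0334) were called too, but the Mrc1 call ended without ob/ob-Veh 1, ob/ob-Veh 2 or ob/ob-Rosi 2 (adjusted p up to 0.0993), and that of Clec10a without ob/ob-Veh 1, ob/ob-Veh 2, ob/ob-Rosi 2 or WT-Veh 2 (up to 0.165). Thinning cells to 700 UMIs ended both calls as well, at log2 fold changes of -0.94 for Mrc1 and -0.77 for Clec10a. Folr2 (-0.60, adjusted p = 0.153) and Arg1 (-1.31, adjusted p = 0.253) were not called. The median log2 fold change was -2.11 over the members and -0.01 over all genes.

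Set against the libraries labelled WT-Veh, ob/ob-Rosi macrophages gave no call for any member. By edgeR 0 members were called in eWAT and 0 in iWAT, where 0.00% of all genes were called in either depot. At an unadjusted p of at most 0.05 stood 4 members in eWAT, Lyve1 (log2 fold change -1.22), Clec10a (-0.82), F13a1 (-0.73) and Ear2 (-0.68), among 355 genes, and 2 in iWAT, Arg1 (-1.34) and Clec10a (-0.81), among 666 genes. DESeq2 called 0 members in each depot. A p above the threshold does not show that the levels were alike.

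Sums over all macrophages mix the level within a class with the class shares given above, and fewer cells of a class and less RNA per cell cannot be told apart in them. The class levels were then weighted by the mean share of macrophage-like UMIs, not of cells, that each class held in the WT-Veh libraries of the depot. This calculation was chosen after the data were seen, and its weights are called the WT-Veh class shares. With them the ratio of mean levels of ob/ob-Veh to WT-Veh in eWAT went from 28.3 to 12.3 for Retnla, from 8.02 to 3.31 for Mgl2, from 4.50 to 1.89 for Cd163 and from 3.71 to 1.98 for Ear2. It went from 3.20 to 1.24 for Lyve1, from 2.53 to 1.24 for F13a1 and from 2.04 to 1.16 for Mrc1. Clec10a went from 1.099 to 0.509 and Folr2 from 1.80 to 0.858. For ob/ob-Rosi over ob/ob-Veh the ratio went from 0.0379 to 0.0846 for Retnla, from 0.124 to 0.330 for Mgl2, from 0.133 to 0.533 for Lyve1 and from 0.234 to 0.705 for F13a1, while those of Clec10a and Folr2 passed 1, from 0.504 to 1.30 and from 0.563 to 1.4. The same ratio went from 0.175 to 0.569 for Cd163, from 0.375 to 0.801 for Mrc1 and from 0.165 to 0.247 for Ear2. Of 30469303 UMIs in WT-Veh 1, PVM-like and NPVM-like cells held 4765521 and 1451119. Of 21289742 in WT-Veh 2 they held 4768487 and 1453212. Most of the weight thus fell on the other classes, and those were small in ob/ob-Veh, so these weighted ratios rest largely on few cells. In ob/ob-Veh 1 and 2 there were 12 and 23 LAM-like, 34 and 70 unnamed macrophage-like, and 33 and 10 PLAM-like cells. The weighted ratios carry no test.

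Within PVM-like cells of eWAT, Retnla stood at 2258 and 655 CPM in WT-Veh, 12780 and 10061 in ob/ob-Veh and 2020 and 488 in ob/ob-Rosi. The ob/ob-Veh values did not overlap the others, and in each group replicate 1 lay above replicate 2. Retnla was called higher in ob/ob-Veh than in WT-Veh (log2 fold change 2.85, SE 0.68, adjusted p = 0.0429) and lower in ob/ob-Rosi than in ob/ob-Veh (-3.08, SE 0.68, adjusted p = 0.0407). Same-numbered libraries deviated together in these cells, and a fit blocked on that number gave log2 fold changes of 3.18 (adjusted p = 1.79e-05) and -3.43 (adjusted p = 1.15e-05). The deviations correlated at 0.167 to 0.309 only, and the labels do not state a pairing. Replicate 1 was also the shallower library of each group. Median UMIs per PVM-like cell were 1936 and 5279 in WT-Veh, 3261.5 and 4467.5 in ob/ob-Veh and 2344 and 4248 in ob/ob-Rosi. Replicate number and depth thus cannot be told apart in the blocked fit. In the fit with no block, without any 1 of the WT-Veh and ob/ob-Veh libraries the first call was lost, with log2 fold changes from 2.21 to 4.04 and adjusted p up to 0.19, and the second was lost without WT-Veh 1, WT-Veh 2, ob/ob-Veh 1 or ob/ob-Rosi 2, with adjusted p up to 0.226. Assigning cells one by one to the classes, in place of whole clusters, ended both calls too, at log2 fold changes of 3.09 and -3.40 (adjusted p = 0.0701 and 0.054).

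Mgl2 in PVM-like cells stood at 162 and 127 CPM in WT-Veh, 804 and 990 in ob/ob-Veh and 158 and 180 in ob/ob-Rosi. It was called higher in ob/ob-Veh (2.51, SE 0.26, adjusted p = 0.00089) and lower in ob/ob-Rosi (-2.27, SE 0.26, adjusted p = 0.00179), and both calls were kept under each of 16 alternatives, with log2 fold changes of 2.33 to 2.73 and -2.41 to -2.16. Retnla and Mgl2 were the 2 of 10 members called higher, where 4.36% of genes were called and 1.84% were called higher. Retnla, Mgl2 and Ear2 (-2.20, SE 0.41, adjusted p = 0.0221) were the 3 called lower in ob/ob-Rosi, where 3.14% were called and 1.12% were called lower. Ear2 in PVM-like cells, at 13.2 and 12.4, 28.2 and 42.5, and 10.4 and 2.72 CPM, was at the background level described above, and its call ended without WT-Veh 1, WT-Veh 2, ob/ob-Veh 2 or ob/ob-Rosi 2 (adjusted p up to 0.0995) and with cells assigned one by one (0.0548).

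The members that were highest in PVM-like cells were not called within them. F13a1 ranged over the 6 eWAT libraries from 2336 to 3173 CPM, Clec10a from 1044 to 1732, Folr2 from 1182 to 1835, Mrc1 from 1335 to 2519 and Lyve1 from 687 to 1489. Their log2 fold changes of ob/ob-Veh over WT-Veh were -0.13, -0.36, 0.02, 0.02 and 0.01. Cd163, at 674 and 585, 1327 and 1193, and 782 and 543 CPM, had higher values in both ob/ob-Veh libraries without being called (0.89, SE 0.27, adjusted p = 0.0802). The median of the 10 members was 0.02, and -0.01 over all genes. With the replicate number as a block Cd163 (0.89, adjusted p = 0.0109), Ear2 (1.36, adjusted p = 0.0113) and Arg1 (-1.96, adjusted p = 0.0295) were called as well for ob/ob-Veh against WT-Veh, and Cd163 (-0.82, adjusted p = 0.0185) for ob/ob-Rosi against ob/ob-Veh. Arg1 in PVM-like cells rested on 45 and 9 UMIs in WT-Veh, 13 and 8 in ob/ob-Veh and 6 and 6 in ob/ob-Rosi.

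**Figure D4:**
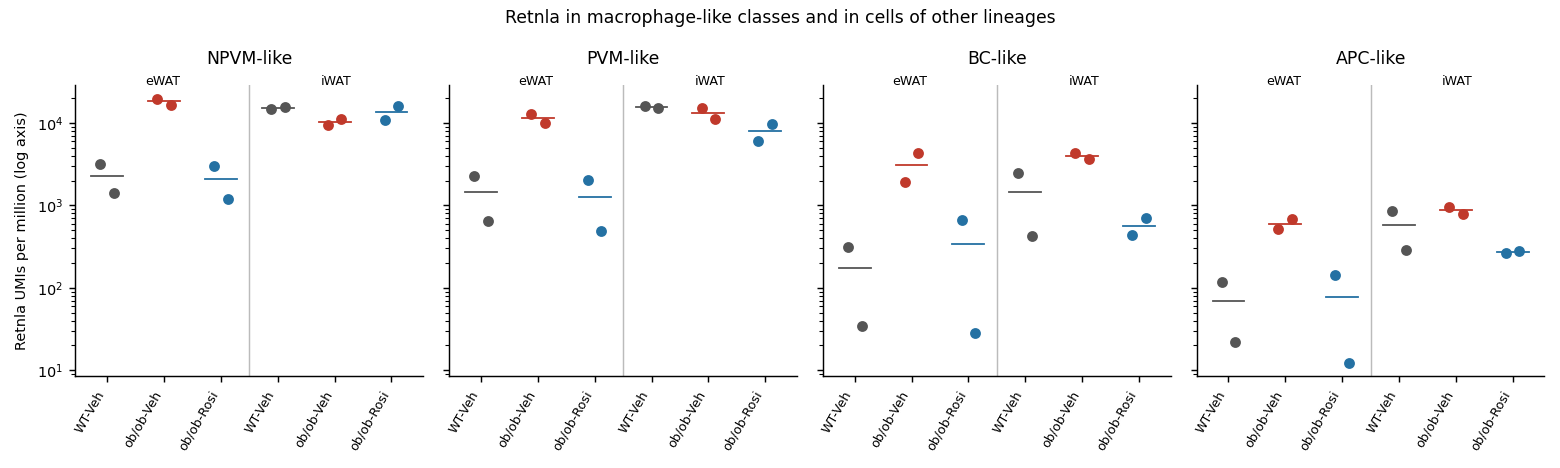
Retnla level (CPM, log axis) in NPVM-like, PVM-like, B-cell-like (BC-like) and APC-like cells of eWAT and iWAT by group, where points are the 2 libraries of a group and the line is their mean. In eWAT the ob/ob-Veh points lie above the others in PVM-like (12780 and 10061) and NPVM-like cells (19753 and 16657), and in iWAT the PVM-like points of WT-Veh and ob/ob-Veh overlap.

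In NPVM-like cells of eWAT, Retnla stood at 3180 and 1393 CPM in WT-Veh, 19753 and 16657 in ob/ob-Veh and 2990 and 1197 in ob/ob-Rosi. Both ob/ob-Veh libraries lay above the other 4, and WT-Veh and ob/ob-Rosi overlapped. The log2 fold changes were 2.89 (SE 0.46, adjusted p = 0.00243) for ob/ob-Veh over WT-Veh and -3.08 (SE 0.46, adjusted p = 0.00189) for ob/ob-Rosi over ob/ob-Veh, and both were kept under each of 16 alternatives. Mgl2, in contrast to the PVM-like cells, had close values in all 3 groups (427 and 306, 460 and 440, 305 and 347 CPM) with log2 fold changes of 0.20 (adjusted p = 0.709) and -0.40 (adjusted p = 0.414). Whether the Mgl2 change differed between the classes was not tested.

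Among the receptors, Clec10a and Folr2 were called lower in ob/ob-Veh in these cells. Clec10a stood at 498 and 885 CPM in WT-Veh, 229 and 279 in ob/ob-Veh and 394 and 331 in ob/ob-Rosi (ob/ob-Veh over WT-Veh -1.54, SE 0.30, adjusted p = 0.00799). Folr2 stood at 166 and 293, 60.5 and 79.4, and 143 and 88.1 CPM (-1.81, SE 0.31, adjusted p = 0.00384). The Clec10a call ended without WT-Veh 2, ob/ob-Veh 1 or ob/ob-Veh 2, at log2 fold changes of -1.61 to -1.10. The Folr2 call ended without WT-Veh 2 (-1.38) or ob/ob-Veh 1 (-1.68). With cells assigned one by one or clustered more coarsely, the Folr2 log2 fold change shrank to -0.07 and -0.34 (adjusted p = 0.915 and 0.616). The APC-like levels were lower in ob/ob-Veh too, at 79.8 and 52.3 against 19.3 and 23.7 CPM for Clec10a and at 62.9 and 29.0 against 13.9 and 23.2 CPM for Folr2 (WT-Veh against ob/ob-Veh). NPVM-like cells had 6.24 to 16.9 times the APC-like level of Clec10a and 2.20 to 10.1 times that of Folr2, and the part of free RNA in these calls was not tested. Lyve1 also had lower values in both ob/ob-Veh libraries, at 90.3 and 109, 52.6 and 31.2, and 48.5 and 2.52 CPM, without being called (-1.32, SE 0.63, adjusted p = 0.217), and the difference turned to 1.31 and passed the threshold with cells assigned one by one. Mrc1 (413 and 597, 549 and 525, 626 and 207 CPM) and F13a1 (270 and 498, 385 and 529, 290 and 124 CPM) overlapped between WT-Veh and ob/ob-Veh. Retnla, Clec10a and Folr2 were the 3 members called, where 6.47% of all genes were. With cells assigned one by one this count and the next were higher, as given in the last section. In ob/ob-Rosi against ob/ob-Veh 4 members were called lower, where 5.81% of genes were called either way, namely Retnla, Ear2 (980 and 1057 against 421 and 332 CPM, -1.38, SE 0.26, adjusted p = 0.00772), Cd163 (103 and 105 against 52.8 and 27.7 CPM, -1.32, SE 0.30, adjusted p = 0.021) and Arg1 (-1.81, SE 0.48, adjusted p = 0.038). The Ear2 call ended without ob/ob-Veh 1 or ob/ob-Veh 2 (adjusted p up to 0.0824), and the Cd163 call without ob/ob-Veh 1, ob/ob-Veh 2 or ob/ob-Rosi 2 (up to 0.145), with thinning to 700 UMIs (0.111) and at a clustering resolution of 2 in place of 1 (-0.27, adjusted p = 0.748). Arg1 rested on 143 and 44 UMIs in ob/ob-Veh and 9 and 15 in ob/ob-Rosi, and its call ended under 7 of 15 alternatives, namely without ob/ob-Veh 1, ob/ob-Rosi 1 or ob/ob-Rosi 2 (adjusted p up to 0.369), with DESeq2 (0.0632), with library size alone as the scale (0.052) and at clustering resolutions of 0.5 and 2 (0.175 and 0.0909).

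For LAM-like cells the fits left out eWAT ob/ob-Veh 1 (12 cells) and iWAT ob/ob-Veh 2 (6 cells), so ob/ob-Veh was a single library of 23 or 25 cells and the counts of calls say little about these cells. By edgeR, in eWAT 0 members were called in ob/ob-Veh against WT-Veh and 0 in ob/ob-Rosi against ob/ob-Veh, where 0.0253% of genes were called in each, and in iWAT 0 and 0, where 0.00% were. At an unadjusted p of at most 0.05 stood 3 and 3 members in eWAT and 2 and 1 in iWAT, DESeq2 called 1 and 1 in eWAT and 0 and 0 in iWAT, and with the replicate number as a block 2 and 2 were called in eWAT and 3 and 2 in iWAT. For these last counts the shares of all genes are not given here. In WT-Veh and ob/ob-Rosi, Retnla was at 47.0 to 293 CPM in eWAT LAM-like cells and at 1259 to 2450 in those of iWAT.

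In iWAT Retnla was high in every group. It was at 11284 and 11913 CPM in WT-Veh, 13646 and 11078 in ob/ob-Veh and 4200 and 7931 in ob/ob-Rosi of all macrophage-like cells. WT-Veh and ob/ob-Veh overlapped (log2 fold change -0.11, SE 0.43, adjusted p = 0.884), and the lower ob/ob-Rosi values were not called (-0.76, SE 0.43, adjusted p = 0.231). Mgl2 was at 638 and 426, 620 and 1041, and 295 and 489 CPM, Cd163 at 739 and 593, 898 and 1275, and 592 and 549, and Lyve1 at 832 and 796, 899 and 1157, and 382 and 726. None of these was called in either comparison, and the lowest adjusted p among them was 0.121, for Cd163 in ob/ob-Rosi against ob/ob-Veh. Also not called were Mrc1 (2586 and 1021, 2649 and 2993, 1642 and 1047 CPM), Folr2 (733 and 1401, 500.1 and 993, 692 and 1024 CPM), Ear2 (146 and 227, 224 and 220.1, 122 and 147 CPM) and F13a1 (1973 and 2197, 2577 and 2454, 1547 and 1815 CPM).

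Arg1 and Clec10a were the exceptions in iWAT. Arg1 had 144 and 341 UMIs in WT-Veh, 6 and 1 in ob/ob-Veh and 103 and 278 in ob/ob-Rosi, or 25.5 and 16.5, 0.860 and 0.190, and 4.95 and 10.6 CPM. Both ob/ob-Veh libraries lay below all others. It was called lower in ob/ob-Veh than in WT-Veh (-5.37, SE 0.66, adjusted p = 0.00487) and higher in ob/ob-Rosi than in ob/ob-Veh (4.04, SE 0.66, adjusted p = 0.00845), and both calls ended without ob/ob-Veh 1 or ob/ob-Veh 2, with adjusted p up to 0.07 and 0.0971. LAM-like cells, the class with the highest Arg1 median, were 16.2% and 11.3%, 0.740% and 0.241%, and 21.9% and 11.3% of the macrophages in the same order. At the WT-Veh class shares the ratio of mean Arg1 levels went from 0.0249 to 0.0171 for ob/ob-Veh over WT-Veh and from 14.8 to 17.1 for ob/ob-Rosi over ob/ob-Veh, a weighting in which the LAM-like level of ob/ob-Veh came from 25 and 6 cells. In ob/ob-Veh the unnamed macrophage-like level came from 4 and 9 cells and the monocyte-like level from 3 and 3. Clec10a was at 1720 and 1387, 2047 and 2603, and 919 and 775 CPM and was called lower in ob/ob-Rosi than in ob/ob-Veh (-1.19, SE 0.29, adjusted p = 0.0254), a call that ended without any 1 of these 4 libraries and with thinning to 700 UMIs (at -0.97), with adjusted p up to 0.195. The count was 1 of 10 members in ob/ob-Veh against WT-Veh, where 13.4% of genes were called, and 2 of 10 in ob/ob-Rosi against ob/ob-Veh, where 22.0% were. Both shares are near the background or below it.

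Within PVM-like cells of iWAT, 0 members were called in ob/ob-Veh against WT-Veh by edgeR, where 4.55% of genes were called. At an unadjusted p of at most 0.05 stood 1 member, and DESeq2 called 1, with the shares of all genes by these measures not given here. F13a1 ranged from 2831 to 3482 CPM over the 6 libraries, and Retnla was at 16123 and 15075, 15312 and 11233, and 6069 and 9829 CPM. Folr2 was at 998 and 2183, 625 and 1188, and 1172 and 1978 CPM, and its groups overlapped. In ob/ob-Rosi against ob/ob-Veh 1 member was called, where 7.64% of genes were, and it was Ear2 (-2.17, SE 0.39, adjusted p = 0.0263), which stood at 1.26 to 2.59 times the APC-like level in these cells and lost its call without any 1 of the 4 libraries compared (adjusted p up to 0.27).

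In NPVM-like cells of iWAT the calls fell on Cd163, Lyve1, Clec10a and Arg1. Cd163 stood at 47.3 and 44.9 CPM in WT-Veh, 163 and 280 in ob/ob-Veh and 56.3 and 66.4 in ob/ob-Rosi (ob/ob-Veh over WT-Veh 1.91, SE 0.39, adjusted p = 0.0169, ob/ob-Rosi over ob/ob-Veh -1.42, SE 0.36, adjusted p = 0.0144). Lyve1 stood at 39.4 and 25.5, 158 and 133, and 18.5 and 39.6 CPM (1.95, SE 0.44, adjusted p = 0.0228, and -1.87, SE 0.39, adjusted p = 0.00666). Clec10a stood at 434 and 294, 755 and 833, and 186 and 158 CPM and was called only in the second comparison (-1.80, SE 0.38, adjusted p = 0.0073). For all 3 genes both ob/ob-Veh libraries were the highest. The NPVM-like levels of Lyve1 were 1.03 to 2.82 times the APC-like level, where APC-like cells held 38.2 and 9.04 CPM of Lyve1 in WT-Veh, 57.3 and 55.7 in ob/ob-Veh and 10.8 and 14.5 in ob/ob-Rosi. The NPVM-like to APC-like ratio was 1.42 to 5.54 for Cd163 and 5.17 to 9.09 for Clec10a. The APC-like level of Cd163 was highest in ob/ob-Veh as well (47.6 and 62.5 CPM, against 10.4 to 33.3 in the other groups). The part of free RNA in the calls of these 3 genes was not tested. Of 17 other perivascular genes tested in these cells, 5 were called higher in ob/ob-Veh than in WT-Veh and 0 lower, where 9.23% of all genes were called either way, with a median log2 fold change of 0.43 over the 17. Cd209g (3.58), Cd209f (2.84) and Gas6 (2.22) were among the 5. In ob/ob-Rosi against ob/ob-Veh 2 of the 17 were higher and 6 lower, with a median of -0.59. There 25.1% of all genes were called either way.

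Each of these calls ended without some library. For ob/ob-Veh against WT-Veh, Cd163 was lost without ob/ob-Veh 2 (adjusted p = 0.154) and Lyve1 without WT-Veh 2, ob/ob-Veh 1 or ob/ob-Veh 2 (up to 0.147). For ob/ob-Rosi against ob/ob-Veh, Cd163 and Clec10a were lost without any 1 of the 4 libraries (up to 0.193 and 0.131) and Lyve1 without ob/ob-Veh 1 or ob/ob-Rosi 1 (up to 0.0779). Clustering at a resolution of 0.5 or 2 in place of 1 ended the Cd163 and Lyve1 calls of both comparisons, and at a resolution of 2 the Lyve1 log2 fold changes were 0.08 (adjusted p = 0.936) and -0.28 (adjusted p = 0.671). Assigning cells one by one ended both Cd163 calls (0.54, adjusted p = 0.388, and -0.81, adjusted p = 0.134) and the first Lyve1 call (1.27, adjusted p = 0.105). Retnla, at 14602 and 15531, 9538 and 11061, and 10757 and 16018 CPM, was lower in both ob/ob-Veh libraries than in WT-Veh without being called (-0.88, adjusted p = 0.38, and 0.80, adjusted p = 0.344 for ob/ob-Rosi over ob/ob-Veh). Arg1 was called in both directions, but on 2 and 18 UMIs in WT-Veh, 1 and 0 in ob/ob-Veh and 6 and 44 in ob/ob-Rosi. The ratio of ob/ob-Veh to WT-Veh was 0.0576 (95% counting interval 0.00139 to 0.360) and to ob/ob-Rosi 0.0540 (0.00134 to 0.315), intervals that cover counting error only, and its calls ended under 8 and 3 of 15 alternatives. In all 3 members were called in the first comparison, where 9.23% of genes were, and 4 in the second, where 25.1% were.

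**Figure D5:**
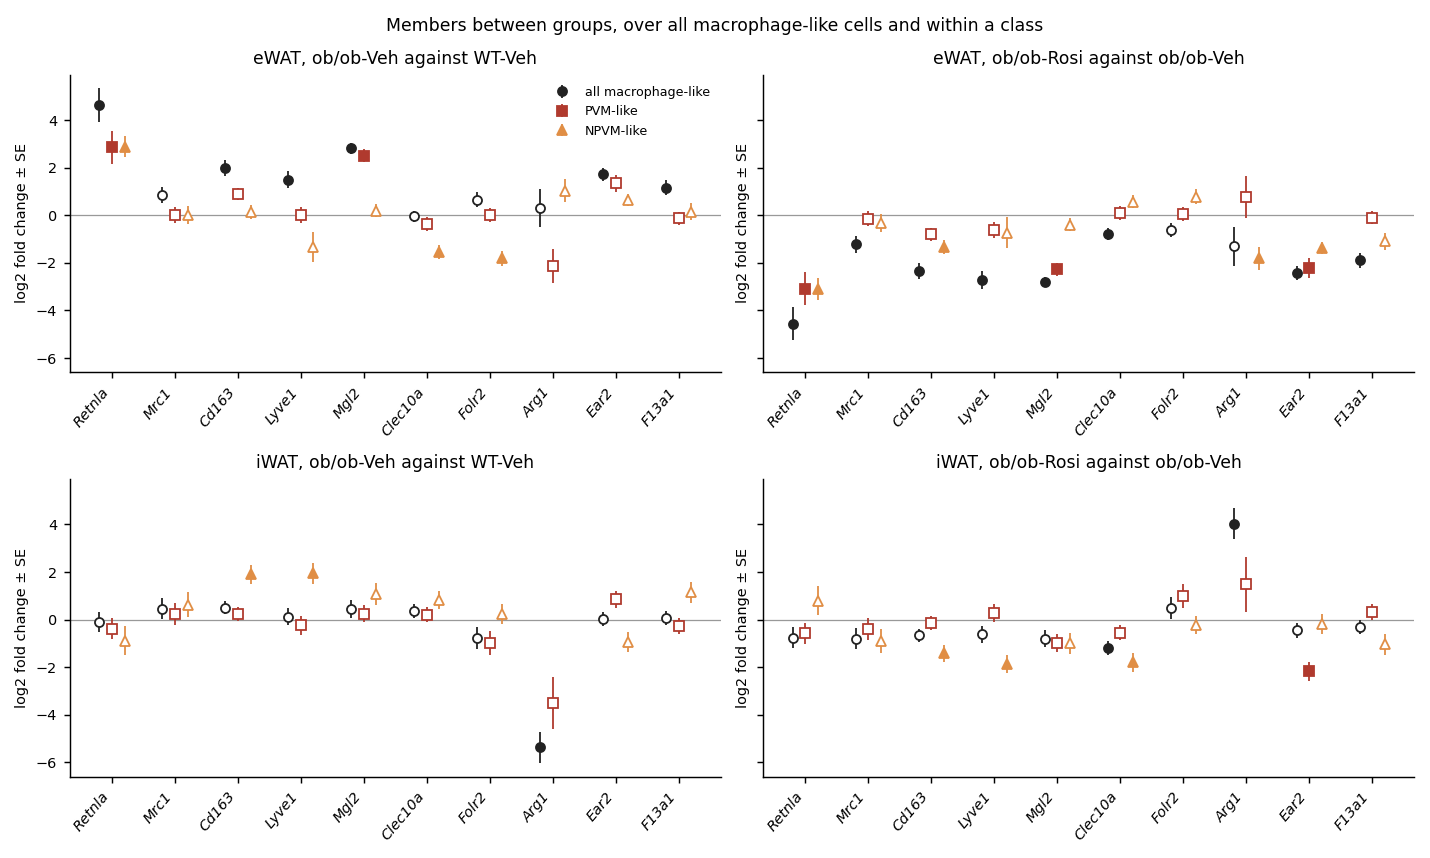
Log2 fold changes of the 10 genes with their standard errors in all macrophage-like (circles), PVM-like (squares) and NPVM-like cells (triangles), for ob/ob-Veh against WT-Veh and ob/ob-Rosi against ob/ob-Veh in each depot. Filled symbols were called, Arg1 in iWAT NPVM-like cells is left out, and eWAT Retnla reaches 4.64 and -4.55 while iWAT Retnla stays at -0.11 and -0.76.

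The depots were compared directly in 1 fit of all 12 libraries. It took the libraries as independent, and the labels do not say whether eWAT and iWAT libraries came from the same mice. The study places all samples in a single batch of processing and sequencing, while the data of the depots went through Cell Ranger separately. Depot and any such separate processing cannot be told apart here. Averaged over the groups, macrophages of iWAT had higher levels than those of eWAT in 7 of 10 members, where 23.4% of genes were called and 9.79% were called higher. The log2 fold changes were 2.60 for Retnla (SE 0.38, adjusted p = 0.00213), 1.55 for Mgl2 (SE 0.18, adjusted p = 0.000794), 1.48 for Lyve1 (SE 0.23, adjusted p = 0.00256), 1.38 for Cd163 (SE 0.18, adjusted p = 0.00146), 1.13 for F13a1 (SE 0.18, adjusted p = 0.00271), 0.99 for Clec10a (SE 0.14, adjusted p = 0.00193) and 0.97 for Mrc1 (SE 0.25, adjusted p = 0.0176). For Retnla the average was carried by WT-Veh (mean 11598 CPM in iWAT, 463 in eWAT) and ob/ob-Rosi (6065 and 497), since ob/ob-Veh had 12362 CPM in iWAT and 13089 in eWAT. For Mgl2 the depots overlapped in ob/ob-Veh (620 and 1041 CPM in iWAT, 601 and 789 in eWAT) but not in the other groups. Cd163 had its smallest gap in ob/ob-Veh, at 898 and 1275 CPM in iWAT and 705 and 836 in eWAT. The Mrc1 call was lost without eWAT WT-Veh 1 or eWAT ob/ob-Veh 1 (adjusted p up to 0.0648), and the other 6 were kept without each library. Arg1 was lower in iWAT (-2.66, SE 0.58, adjusted p = 0.0101), and Folr2 (0.33, adjusted p = 0.338) and Ear2 (0.28, adjusted p = 0.258) were not called. The median was 1.06 over the members and 0.00 over all genes. PVM-like cells were the larger share of the macrophages in iWAT in every group, as given above. The iWAT matrices held no barcode above 21957 UMIs or 24.98% mitochondrial reads, while the eWAT matrices reached 149572 UMIs and 98.34%, so the same limits were applied to both depots here.

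The difference of the libraries labelled ob/ob-Veh from those labelled WT-Veh itself varied between the depots for Retnla (iWAT minus eWAT -4.76 on the log2 scale, SE 0.92, adjusted p = 0.0382) and for Mgl2 (-2.39, SE 0.44, adjusted p = 0.0291), 2 members where 1.12% of genes were called. The Retnla call ended without any 1 of 7 of the 8 libraries compared (the exception being iWAT WT-Veh 1) and the Mgl2 call without any 1 of 6 (the exceptions being the iWAT WT-Veh libraries), with adjusted p up to 0.16 and 0.156. At the WT-Veh class shares the ratio of mean levels of ob/ob-Veh to WT-Veh was 12.3 in eWAT and 0.837 in iWAT for Retnla, and 3.31 and 1.22 for Mgl2. The ob/ob-Veh levels in this weighting rest on few cells, for most of the weight in eWAT and for part of it in iWAT. In iWAT these were 25 and 6 LAM-like, 4 and 9 unnamed macrophage-like and 3 and 3 monocyte-like cells. For Ear2 the difference was -1.71 (adjusted p = 0.0858), for Cd163 -1.50 (adjusted p = 0.132), for Lyve1 -1.38 (adjusted p = 0.309) and for F13a1 -1.11 (adjusted p = 0.294). For ob/ob-Rosi against ob/ob-Veh 0 members were called by edgeR, where 0.00% of genes were, although 7 members stood at an unadjusted p of at most 0.05 and DESeq2 called 7. The shares of all genes by those measures are not given here, so the 7 cannot be read as particular to the members.

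The surrounding programme in all macrophage-like cells of eWAT was read from lists of other genes, which were drawn up with earlier results of these data known. Among 16 regulators of the interleukin-4, STAT6 and PPARγ axis, 7 were called higher and 1 lower in ob/ob-Veh than in WT-Veh, where 26.8% of all genes were called and 12.6% called higher. Cish, a feedback inhibitor induced by STAT signalling, was higher by 3.32 on the log2 scale (adjusted p = 0.000707), Irf4, a transcription factor of alternative activation, by 2.28, and the interleukin-13 receptor chain Il13ra1 by 1.95. Of 21 other alternative activation genes tested, 7 were higher and 2 lower, led by the eosinophil chemokine Ccl24 (2.99), the ribonuclease Rnase2a (3.13) and Ptgs1 (1.91). Of 18 other perivascular genes, 8 were higher and 2 lower, with Cd209g higher (2.36) and the complement receptor Vsig4 lower (-2.19). These 18 genes also named the PVM-like class, so counts of them over all macrophage-like cells are not independent of its share. Their median log2 fold change was 0.60 here and 0.04 within PVM-like cells. Of 15 classical activation genes tested, 4 were higher and 3 lower, among them Il6 (3.95), Cd80 (2.94) and Cxcl10 (2.69), which are genes of classical and not alternative activation.

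In ob/ob-Rosi against ob/ob-Veh, where 28.2% of all genes were called and 13.3% called lower, 1 regulator of the axis was called higher and 10 lower, and the one called higher was Pparg itself (1.94), while Cish (-3.52) and Irf4 (-1.75) were lower. Of the alternative activation genes 2 were higher and 7 lower (Rnase2a -4.78, Ccl24 -2.86, Ptgs1 -2.43), of the perivascular genes 1 and 9 (Cd209g -3.97, Cbr2 -1.996), and of the classical genes 3 and 4 (Il6 -4.54, Cxcl10 -2.45, Ccl3 1.87). The median log2 fold changes over the 4 lists were -0.77, -0.14, -1.05 and -0.30, beside -0.01 over all genes. For the perivascular genes the count and median are again not independent of the PVM-like share. In ob/ob-Rosi against WT-Veh 0 genes of the 4 lists were called in either depot, as for all genes.

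Within PVM-like cells of eWAT the background share called in ob/ob-Veh against WT-Veh was 4.36% (1.84% higher). Irf4 (1.38) and Il13ra1 (1.47) were the 2 of 16 axis regulators called and Ccl24 (1.71) and Batf3 (1.38) the 2 of 18 alternative activation genes, all higher. Of 18 perivascular genes, which also named these cells, 2 were higher and 2 lower, and Vsig4 (-3.65) and the chemokine Ccl8 (-3.56) were the lower ones. Of 14 classical genes, 3 were higher and 2 lower (Il6 2.98, Ccl4 -2.05). In NPVM-like cells, where 6.47% of all genes were called, Cish (2.55) and Tyk2 (1.20) were the 2 of 16 regulators called higher, 4 of 18 alternative activation genes were higher and none lower, and 9 of 18 perivascular genes were lower, led by Vsig4 (-5.76), while Ccl24, which is in both of these lists, was higher (2.09). Ccl24 and Batf3 were thus called higher in both classes.

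For ob/ob-Rosi against ob/ob-Veh fewer genes of the lists were called within the eWAT classes than over all macrophages. In PVM-like cells, where 3.14% of all genes were called, 0 of 16 axis regulators passed, with a median log2 fold change of -0.38. Of 18 alternative activation genes 0 were higher and 2 lower, Ccl24 (-1.10) and the prostaglandin synthase Ptgs1 (-1.11). Of 18 perivascular genes 2 were higher, Vsig4 (3.42) and Ccl8 (3.30), and 4 lower, with a median of -0.04, and of 14 classical genes 2 were higher and 2 lower. In NPVM-like cells, where 5.81% of all genes were called, 1 regulator was higher (Pparg, 1.33) and 3 lower (Cish -3.81), with 0 and 4 alternative activation genes, 3 and 3 perivascular genes and 2 and 4 of the classical genes.

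In iWAT 13.4% of all genes were called in ob/ob-Veh against WT-Veh, as given above. Of the axis regulators 3 were higher and 2 lower (Il13ra1 1.29, Egr2 -1.84, Pparg -1.60), of 22 alternative activation genes 0 and 3 (Rnase2a -6.76), of the perivascular genes 0 and 1 (Vsig4 -2.64) and of the classical genes 3 and 1 (Cxcl9 -2.16, Ptgs2 1.80). In ob/ob-Rosi against ob/ob-Veh, where 22.0% of all genes were called, 2 regulators were higher and 4 lower, then 3 and 1 alternative activation genes, 2 and 5 perivascular genes, and 3 and 3 classical genes. Genes of the lists whose difference between ob/ob-Veh and WT-Veh varied between the depots were Cish (iWAT minus eWAT -3.94, adjusted p = 0.0131), Egr2 (-2.55), Ccl24 (-3.53), Rnase2a (-9.89), Ptgs1 (-2.67) and Il6 (-3.90) and Fcgr1 (1.92).

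For each member, the genes whose level over the 12 macrophage sums was most like it were sought among 5849 genes with a mean of at least 20 CPM. Cd209d, a lectin of perivascular macrophages, was most like Cd163 (Pearson's r = 0.987) and F13a1 (0.986), and Cd209b was most like Lyve1 (0.974). Retnla was most like Jup (0.977) and Gfra2 (0.972), and Mgl2 was most like App (0.977) and Kbtbd11 (0.97). Ear2 was most like Il6 (0.965) and Atf4 (0.962), Mrc1 like Pom121 (0.983) and Diaph2 (0.981), Clec10a like Cp (0.96) and Ddx60 (0.94), Folr2 like Pnp (0.956) and Pnrc1 (0.879), and Arg1 like Tubb6 (0.9) and Hspa8 (0.883). The libraries fall into depots and groups, and these values are descriptions of likeness over them.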

How the data were processed

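The authors made 10x 3' single-cell libraries (v3.1 chemistry) of the SVF and deposited, per library, a matrix of whole-number UMI counts per gene and barcode. Per the labels, bcl2fastq 2.19.1.403 and Cell Ranger 3.0.2 with mm10 were used. From these counts, cells with 700 to 22000 UMIs, 200 to 6000 genes and under 25% mitochondrial reads were kept. They were clustered per depot with scanpy 1.11.5 (2000 variable genes, 25 components, 20 neighbours, Leiden resolution 1) without the 10 members, and named from other markers. Doublets were removed only in an alternative.

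UMIs were summed per library and class (at least 20 cells) and tested with edgeR 4.0.16 (TMM factors, quasi-likelihood, Benjamini-Hochberg adjustment over all genes tested, 3 residual degrees of freedom for 6 libraries), and with DESeq2 1.42.0 as an alternative, in R 4.3.3. The edgeR test was also tried on simulated counts, with means and dispersions taken from these data. The outcome is not given here. Summed counts cannot tell fewer cells of a type from less RNA per cell, and counting intervals cover counting error only.

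The labels number the libraries of each group 1 and 2. Deviations from the group means of same-numbered libraries correlated at 0.162 to 0.206 in all macrophage-like and 0.167 to 0.309 in PVM-like cells of eWAT, over each of the 3 pairs of groups. In iWAT those of WT-Veh and ob/ob-Rosi correlated at 0.597 and 0.605 in these classes, but those with ob/ob-Veh at -0.0606 to 0.013. The labels do not say that same-numbered libraries were paired. In both of these classes of eWAT, replicate 1 was the shallower library of each group, so number and depth cannot be told apart there. The main fits had no block, and the number entered as a block only in an alternative fit. The members and all gene lists were chosen with earlier results of these data known. The genes named were the 10 members, the 2 genes most like each, and of each other list up to 3 genes with the lowest adjusted p.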

Additional observations from a re-analysis of the deposited data

Results flagged for a closer look

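The difference of the libraries labelled ob/ob-Veh from those labelled WT-Veh varied between the depots for 2 members by a test of the difference itself, the interaction of depot and group in the edgeR fit of all 12 libraries. That fit took the 12 libraries as independent, and the labels do not say whether the depots shared mice. For Retnla the log2 fold change of ob/ob-Veh over WT-Veh was smaller in iWAT than in eWAT by a difference of -4.76 (adjusted p = 0.0382), and the range over the alternatives was -5.54 to -4.24, with the call lost in 7 of 16 (adjusted p up to 0.16). For Mgl2 the difference was -2.39 (adjusted p = 0.0291), with a range of -2.82 to -2.15 and the call lost in 6 of 16 (adjusted p up to 0.156). In eWAT both ob/ob-Veh libraries lay above both WT-Veh libraries for each gene, and in iWAT the groups overlapped. The eWAT WT-Veh libraries held 25.3% and 27.5% PVM-like cells and those of iWAT 66.4% and 59.96%. At the WT-Veh class shares of each depot, which are shares of UMIs and not of cells, the ratio of mean levels of ob/ob-Veh to WT-Veh was 12.3 in eWAT and 0.837 in iWAT for Retnla, and 3.31 and 1.22 for Mgl2. The ob/ob-Veh side of this weighting rests on few cells, for most of the weight in eWAT and for part of it in iWAT. LAM-like cells, for example, numbered 12 and 23 in eWAT and 25 and 6 in iWAT.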

How the results depend on the processing

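Of 47 called member changes, 21 were kept under every alternative fit and 0 reversed in one, while the ratio of 1 of them, Clec10a in ob/ob-Rosi against ob/ob-Veh in eWAT, passed 1 at WT-Veh class shares. Among single fold changes, 3007 stayed on their side of the threshold, 124 passed it newly, 117 no longer passed it and 2 reversed. A change of sign counted as reversed only where the main or the alternative fit was called. Changes of sign with no call in either fit are counted among the 3007. Of levels and ratios 179 moved by less than the spread and 100 by more. Leaving out 1 library leaves its group with a single one, whose spread is then taken from the other groups.

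The number of members called changed as follows, with the shares of all genes called under each alternative not given here. With DESeq2 it was 4 in place of 2 for ob/ob-Veh against WT-Veh in eWAT PVM-like cells, 1 in place of 0 for both contrasts in eWAT LAM-like cells, 1 in place of 0 for ob/ob-Veh against WT-Veh in iWAT PVM-like cells, and 5 in place of 2 and 7 in place of 0 for the differences between depots. With no filter on low counts it was 1 in place of 0 for ob/ob-Rosi against WT-Veh in each depot, 5 for ob/ob-Veh against WT-Veh in eWAT PVM-like cells, 2 and 1 for the contrasts in eWAT LAM-like cells, 1 for ob/ob-Veh against WT-Veh in iWAT PVM-like and in iWAT LAM-like cells, and 7 and 7 for the differences between depots.

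With the replicate number as a block it was 5 in place of 2 for ob/ob-Veh against WT-Veh and 4 in place of 3 for ob/ob-Rosi in eWAT PVM-like cells, 2 and 2 in place of 0 in eWAT LAM-like cells, 3 and 2 in place of 0 in iWAT LAM-like cells, 2 in place of 1 for ob/ob-Rosi in iWAT PVM-like cells, 2 in place of 3 for ob/ob-Veh against WT-Veh in iWAT NPVM-like cells and 4 in place of 0 for the rosiglitazone difference between depots. Outside all macrophage-like and PVM-like cells of eWAT, correlations of same-numbered libraries were -0.0382 to 0.213 in eWAT NPVM-like cells and -0.127 to 0.605 in iWAT.

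At a clustering resolution of 0.5 the counts were 3 and 2 in eWAT LAM-like cells and 0 and 2 in iWAT NPVM-like cells. At a resolution of 2 they were 2 for ob/ob-Rosi in eWAT NPVM-like cells and 1 and 2 in iWAT NPVM-like cells. With cells assigned singly they were 1 and 1 in eWAT PVM-like, 7 and 7 in eWAT NPVM-like and 1 for ob/ob-Veh against WT-Veh in iWAT NPVM-like cells. With cells thinned to 700 UMIs they were 2 for ob/ob-Rosi in eWAT NPVM-like cells and 1 for ob/ob-Rosi over all iWAT macrophages, and the calls of Lyve1 (ob/ob-Veh against WT-Veh), Mrc1 and Clec10a (ob/ob-Rosi against ob/ob-Veh) over all eWAT macrophages were lost.

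Leaving out each library in turn gave, for ob/ob-Veh against WT-Veh and then ob/ob-Rosi against ob/ob-Veh, 4 to 7 and 6 to 8 members over all eWAT macrophages, 1 to 3 and 1 to 3 in eWAT PVM-like, 1 to 4 and 1 to 6 in eWAT NPVM-like, 0 to 2 and 0 to 2 in eWAT LAM-like, 0 to 2 and 0 to 2 over all iWAT macrophages, 0 to 1 and 0 to 1 in iWAT PVM-like, 0 to 6 and 0 to 7 in iWAT NPVM-like and 1 to 2 and 0 to 1 in iWAT LAM-like cells. It gave 0 to 3 and 0 for the differences between depots, 7 to 8 for iWAT against eWAT and 0 for ob/ob-Rosi against WT-Veh.

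Mgl2 in eWAT LAM-like cells turned to 1.32 for ob/ob-Veh against WT-Veh at a resolution of 0.5, Lyve1 in eWAT NPVM-like cells to 1.31 with cells assigned singly, and the Clec10a ratio of ob/ob-Rosi to ob/ob-Veh in eWAT (called lower) from 0.504 to 1.30 and that of Folr2 (not called) to 1.4 at WT-Veh class shares. The cause was not tested for any of these.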
